A study of Arabidopsis thaliana with 4 samples.

Results

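The 34 genes described here are nuclear genes of Arabidopsis thaliana for photosystem and electron transport subunits, chosen by locus: 12 of the photosystem I core, 4 of its antenna, 10 of photosystem II, 6 of electron carriers and 2 of ATP synthase. They are 34 of the 37869 loci in each deposited table, and all 34 were among the 20971 genes that passed a filter on low counts. Of the 34, 11 overlap another annotated gene. Plants convert light to chemical energy on the thylakoid membrane of the chloroplast. Photosystem II splits water, the cytochrome b6f complex and plastocyanin carry its electrons to photosystem I, ferredoxin and ferredoxin-NADP reductase (FNR) pass them on to NADP, and ATP synthase uses the proton gradient. The genome of the chloroplast encodes the reaction centre proteins, while many outer subunits, the antenna proteins and the soluble carriers are encoded in the nucleus.

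Messenger RNA was sequenced from whole Arabidopsis thaliana seedlings, 14 days old, grown on soil with 16 h of light and 8 h of dark. The groups were tho2-8, a mutant of the THO2 gene, with 2 libraries, and Col-LUC, its background line, with 2 libraries. Both groups share the Col-LUC background, and the group was read from library titles because the genotype label gives Col-LUC for all 4. The THO2 protein is part of the THO complex, which couples transcription to the packaging and export of mRNA. The sources used here do not give the nature of the tho2-8 allele.

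Library totals ran from 17119534 to 17877934 counts after rounding, and 3 counts correspond to 0.165 to 0.177 CPM (counts scaled to library size, here with TMM factors). That floor covers counting error only. THO2 itself stood at 109 and 100.1 CPM in the tho2-8 libraries, against 82.1 and 84.6 CPM in the Col-LUC libraries (edgeR, adjusted p = 0.34), so its level does not check the labels. The label of green seedling tissue was checked with a Calvin cycle list of 8 genes, all tested, which also holds the Rubisco activase RCA and the carbonic anhydrase CA1. The levels of the 8 genes summed to 21186 and 16871 CPM in tho2-8 and to 15777 and 23904 CPM in Col-LUC. The 2 libraries of a genotype were distinct: per gene, chi-square averaged 22.6 within tho2-8 and 24.8 within Col-LUC, well above sampling noise. The labels do not say whether replicates are separate plants or trays, so a p-value reflects only how much these libraries vary, possibly for technical reasons.

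The comparison asked how the mRNA of the photosynthetic machinery differs between tho2-8 and Col-LUC. Over the 34 genes there was no shared change of direction. The log2 fold change of tho2-8 over Col-LUC was above 0 for 17 and below 0 for 17, with a median of 0 to 2 decimals (-0.00011), against 0.01 for all tested genes. The 4 members with an unadjusted p under 0.05, a number near the background and with none past the adjusted test, were both genes of the ferredoxin-docking subunit PsaD, the antenna gene LHCA4 and PETE1, the minor plastocyanin gene. PSAD2 was 1.74-fold higher in tho2-8 (95% interval 1.23 to 2.45), LHCA4 was 1.52-fold higher (1.06 to 2.19), PSAD1 was 1.49-fold higher (1.00 to 2.21) and PETE1 was 1.47-fold higher (1.05 to 2.08).

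None of the 34 passed the quasi-likelihood test of edgeR (Benjamini-Hochberg adjusted over all genes), which called 0.00954% of tested genes in either direction. These 4 genes were the members higher at an unadjusted p under 0.05, which is 11.8% of 34 against 8.40% of all tested genes. The members' share is near that background. At the same p 0 members were lower, against 7.18% of tested genes. DESeq2 called 1 member higher, PSAD2 (adjusted p = 0.0364), and 0 lower, where it called 1.28% and 1.37% of the genes it tested. limma-voom called 0 members and 0.00477% of tested genes. For the other 30 genes the 95% intervals of the fold all included 1 and reached down to 0.559-fold and up to 1.88-fold. These are the outermost bounds over the 30 genes, and the interval of a single gene can be narrower, such as 0.837 to 1.40 for PSAG.

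**Figure D1:**
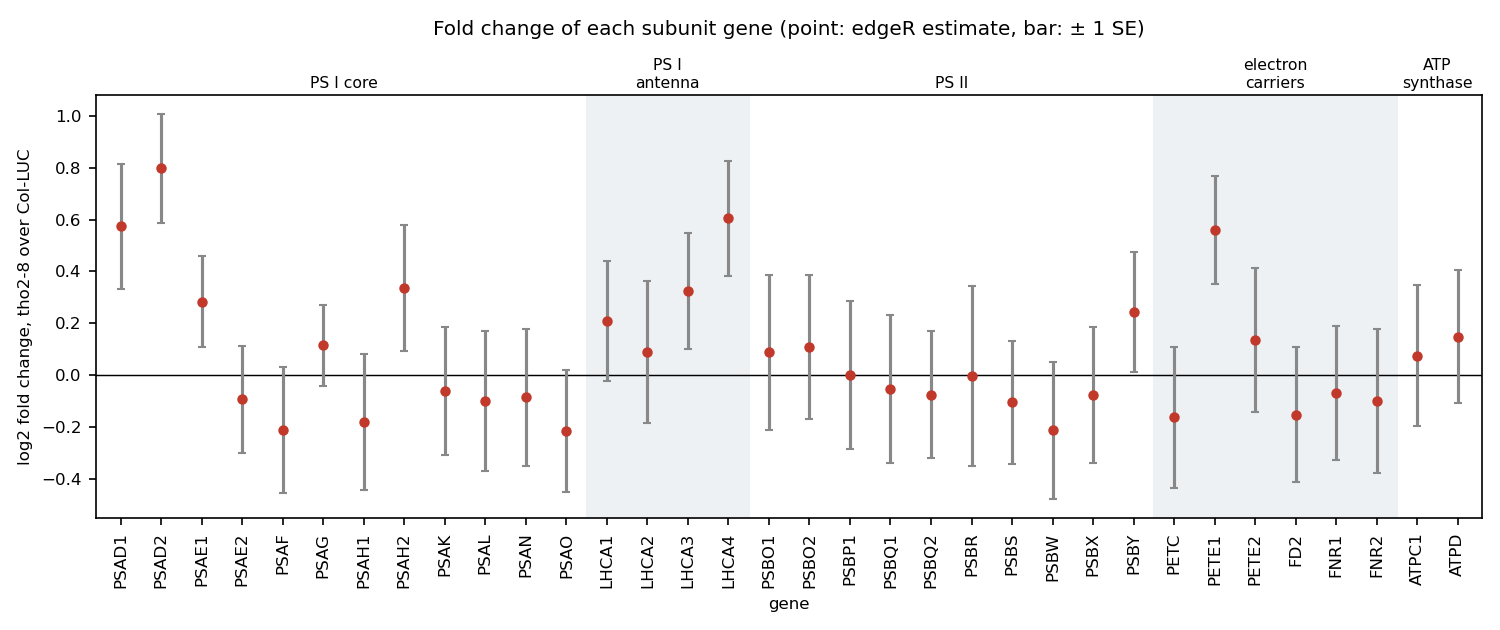
Log2 fold change of tho2-8 over Col-LUC for each of the 34 genes, grouped by complex, as edgeR's estimate with a bar of 1 SE on each side (2 libraries per genotype). PSAD2 at 0.80, LHCA4 at 0.61, PSAD1 at 0.57 and PETE1 at 0.56 lie highest, and the lowest gene is PSAO at -0.22.

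The spread between replicates was large for these genes and ran in 1 direction. All 34 genes were higher in Col-LUC replicate 2 than in Col-LUC replicate 1, by 1.17-fold for PSAG to 1.60-fold for FNR2, with a median of 1.45-fold. In tho2-8, 31 of the 34 were higher in replicate 1 than in replicate 2, with a median of 1.24-fold. Of all 20971 tested genes, 10787 were higher in Col-LUC replicate 2 than in Col-LUC replicate 1, and 10378 in tho2-8 replicate 1 than in tho2-8 replicate 2. Col-LUC replicate 1 was the lowest of the 4 libraries for 25 of the 34, or 73.5%, against 28.6% of all tested genes. Summed over the members, the level was 19283 and 15461 CPM in the tho2-8 libraries and 13826 and 20073 CPM in the Col-LUC libraries. The genotypes overlap in this sum, and the ratio of their means was 1.02.

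The sign of many genes turned with the libraries kept, in either genotype. Without tho2-8 replicate 1, 23 of the 34 log2 fold changes were below 0, with a median of -0.17, and without tho2-8 replicate 2, 29 were above 0, with a median of 0.18. Without Col-LUC replicate 2 all 34 log2 fold changes were above 0, with a median of 0.30 and 9 genes at an unadjusted p under 0.05. Without Col-LUC replicate 1, 26 of the 34 were below 0, with a median of -0.26, and 1 gene, PSAD2, had an unadjusted p under 0.05. Both tho2-8 libraries lay above both Col-LUC libraries for 6 genes, or 17.6%, against 25.7% of all tested genes. Both lay below for 0, against 22.8%. These shares are below the background in both directions.

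**Figure D2:**
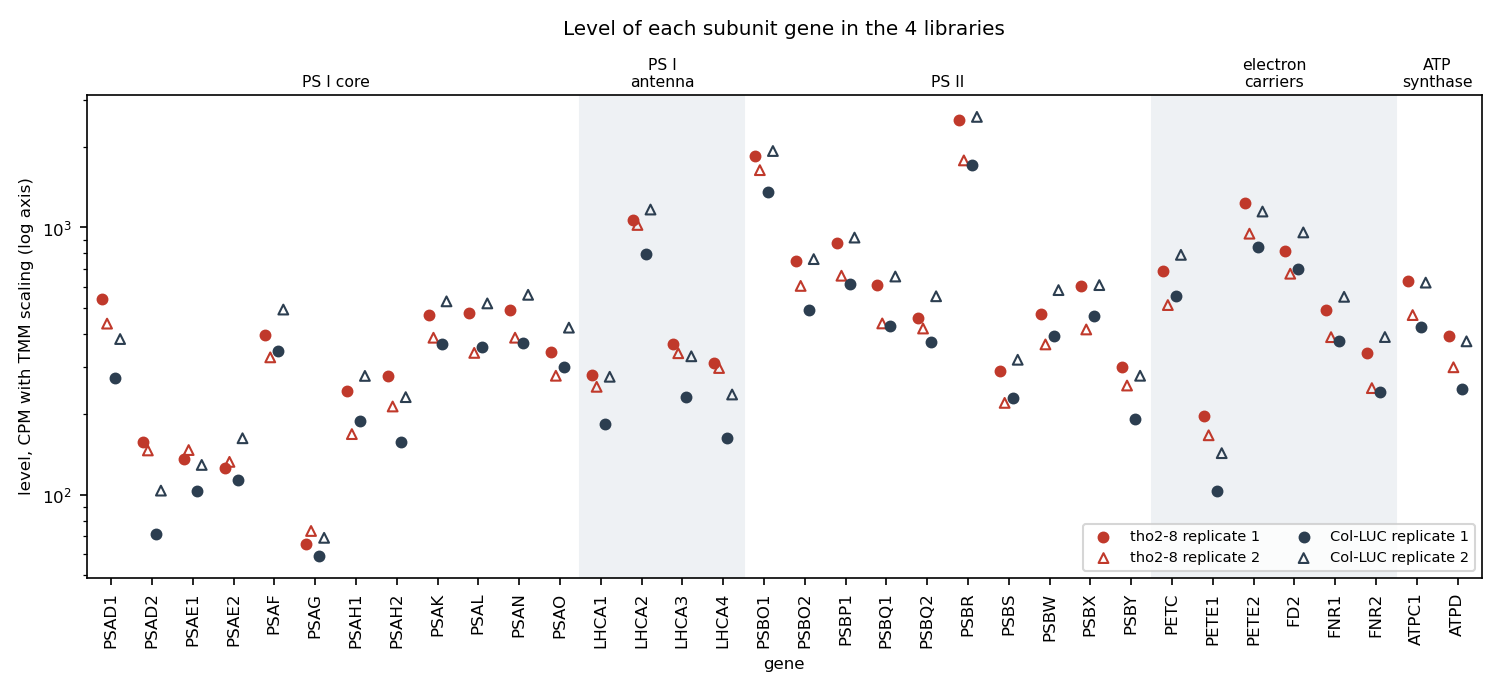
Level of each gene in each of the 4 libraries, in CPM with TMM scaling on a log axis, grouped by complex. Col-LUC replicate 1 is the lowest point for 25 of the 34 genes, and both tho2-8 points lie above both Col-LUC points for PSAD1, PSAD2, PSAE1, LHCA3, LHCA4 and PETE1.

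In the photosystem I core, the subunits PsaD and PsaE form the stromal side on which ferredoxin docks. PSAD2 (AT1G03130, chromosome 1, 753307 to 754262, minus strand, TAIR10.1; 1 exon) stood at 157 and 147 CPM in the tho2-8 libraries, against 71.1 and 104 CPM in the Col-LUC libraries. Its log2 fold change was 0.80 ± 0.21 (SE; 2 libraries each), and edgeR gave an adjusted p of 0.181. PSAD1 (AT4G02770, chromosome 4, 1229031 to 1230164, minus strand; 1 exon) stood at 539.6 and 437 CPM in tho2-8, against 273 and 383 CPM in Col-LUC. For both PSAD copies the groups did not overlap, and every tho2-8 library was above every Col-LUC library. PSAD1 had a log2 fold change of 0.57 ± 0.24 and an adjusted p of 0.319 by edgeR, and its unadjusted p of 0.0489 was just under 0.05.

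PSAE1 stood at 136 and 147 CPM in tho2-8, against 103 and 129 CPM in Col-LUC, and the groups did not overlap. PSAE2 stood at 126 and 133 CPM in tho2-8, against 113 and 163 CPM in Col-LUC. The tho2-8 values of PSAE2 lie between those of the Col-LUC libraries. Neither gene had an unadjusted p under 0.05.

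On the lumenal side PsaF and PsaN take part in the docking of plastocyanin. PSAF stood at 397 and 327 CPM in tho2-8, against 344 and 493 CPM in Col-LUC. PSAN stood at 489.7 and 387 CPM in tho2-8, against 370.3 and 560.1 CPM in Col-LUC. In both genes the groups overlapped, and Col-LUC replicate 2 was the highest library.

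The subunits PsaH, PsaL and PsaO lie where light-harvesting complex II docks during state transitions. PSAH2 stood at 278 and 214 CPM in tho2-8, against 158 and 232 CPM in Col-LUC, and PSAH1 at 244 and 169 CPM in tho2-8, against 189 and 279 CPM in Col-LUC. PSAL stood at 479 and 339.6 CPM in tho2-8, against 358 and 520.1 CPM in Col-LUC. PSAO had the lowest log2 fold change of the 34, -0.22 ± 0.23 (edgeR, adjusted p = 0.701), with 343 and 279 CPM in tho2-8, against 301 and 422 CPM in Col-LUC. All 4 genes overlapped between genotypes. PSAK and PSAG, subunits at the antenna side, had log2 fold changes of -0.06 and 0.12, and PSAG was the lowest of the 34 per length, at 88.9 CPM per kb of exon in tho2-8 and 82.1 CPM per kb in Col-LUC.

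The antenna of photosystem I is built of LHCA1 to LHCA4, which bind as pairs, LHCA1 with LHCA4 and LHCA2 with LHCA3. All 4 genes had log2 fold changes above 0, with a median of 0.27, and this median was 0.02 without Col-LUC replicate 1. LHCA4 (AT3G47470, chromosome 3, 17493343 to 17495033, minus strand; 4 exons) stood at 312 and 298 CPM in tho2-8, against 164 and 237 CPM in Col-LUC. LHCA4 had a log2 fold change of 0.61 ± 0.22 and an adjusted p of 0.274 by edgeR. Its partner LHCA1 stood at 279.9 and 254 CPM in tho2-8, against 185 and 277 CPM in Col-LUC, with a log2 fold change of 0.21. LHCA4 did not overlap between genotypes, while LHCA1 did. LHCA4 shares 53 bases with AT3G47460 on the opposite strand, and the sources used here do not say whether counting used strand.

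LHCA3 stood at 365 and 339 CPM in tho2-8, against 232 and 329.8 CPM in Col-LUC. LHCA2, the highest of the 4 per length, stood at 1066 and 1022 CPM in tho2-8, against 795 and 1167 CPM in Col-LUC. The LHCA3 groups did not overlap, by a small margin, and those of LHCA2 did. The 4 antenna genes summed to 2024 and 1913 CPM in tho2-8 and to 1375 and 2011 CPM in Col-LUC, so the sums of Col-LUC replicate 2 and the tho2-8 libraries were close.

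Photosystem II showed no gene with an unadjusted p under 0.05 and no gene whose groups did not overlap. Its 10 genes ran from -0.21 for PSBW to 0.24 for PSBY on the log2 fold change scale, with a median of -0.03. PSBO1, PSBO2, PSBP1, PSBQ1 and PSBQ2 encode the extrinsic proteins of the water-splitting site. PSBO1 stood at 1855 and 1639 CPM in tho2-8, against 1353 and 1932 CPM in Col-LUC, and PSBP1 at 873 and 660.1 CPM in tho2-8, against 614 and 917 CPM in Col-LUC. In each of these genes Col-LUC held both the lowest and the highest library.

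PSBR, which helps to hold the extrinsic proteins in place, was the highest of the 34 per length, at 2740.5 CPM per kb of exon in tho2-8 and 2745 CPM per kb in Col-LUC. Its level was 2515 and 1782 CPM in tho2-8, against 1712 and 2592 CPM in Col-LUC. The fold was 0.998, with a 95% interval of 0.564 to 1.77 and a sign that turned positive with limma-voom, with library totals, without the filter on low counts and with a replicate block. PSBS, the sensor protein of energy-dependent quenching, stood at 291 and 221 CPM in tho2-8, against 230.0 and 320.1 CPM in Col-LUC. PSBY, a small membrane subunit, had the smallest unadjusted p of photosystem II, with a log2 fold change of 0.24 ± 0.23 (edgeR, adjusted p = 0.65). PSBY stood at 301 and 256 CPM in tho2-8, against 192 and 279 CPM in Col-LUC.

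Among the electron carriers, plastocyanin is encoded by PETE1 and PETE2, of which PETE2 was the higher per length in both genotypes. PETE1 (AT1G76100, chromosome 1, 28553883 to 28554930, minus strand; 1 exon) stood at 197 and 167 CPM in tho2-8, against 103 and 143 CPM in Col-LUC. Its log2 fold change was 0.56 ± 0.21, with an adjusted p of 0.28 by edgeR, and the groups did not overlap. PETE2 stood at 1239.6 and 948 CPM in tho2-8, against 844 and 1147 CPM in Col-LUC, with a log2 fold change of 0.14 and overlapping groups.

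The other carriers had log2 fold changes below 0, and their groups overlapped. PETC, the Rieske iron-sulfur protein of the cytochrome b6f complex, stood at 689 and 513 CPM in tho2-8, against 555 and 790.1 CPM in Col-LUC. FD2, the main leaf ferredoxin, stood at 820.1 and 672 CPM in tho2-8, against 699 and 958 CPM in Col-LUC. The leaf FNR genes FNR1 and FNR2 had log2 fold changes of -0.07 and -0.10. ATPC1 and ATPD encode the gamma and delta subunits of chloroplast ATP synthase. ATPD, with the smaller p of the pair, had a log2 fold change of 0.15 ± 0.26 (edgeR, adjusted p = 0.823), at 393 and 300.1 CPM in tho2-8 and 249.7 and 375 CPM in Col-LUC. ATPC1 stood at 631 and 470.4 CPM in tho2-8, against 423 and 622 CPM in Col-LUC.

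The Col-LUC replicates differed by a swing that all 34 genes shared, and the tho2-8 replicates by a swing that 31 shared. Each gene was therefore also expressed as its share of the summed counts of the 34, a measure chosen after the values were seen. This share does not depend on the scaling of libraries. It is relative, so a higher share of some genes lowers that of others. It can also widen the gap between replicates of a gene outside the swing. PSAG stood at 65.5 and 73.3 CPM in tho2-8 and held 0.340% and 0.474% there. PSAD2 held 0.816% and 0.948% of the summed counts in tho2-8, against 0.515% and 0.517% in Col-LUC. PSAD1 held 2.80% and 2.83% in tho2-8, against 1.98% and 1.91% in Col-LUC. LHCA4 held 1.62% and 1.93% in tho2-8, against 1.18% in each Col-LUC library, and PETE1 held 1.02% and 1.08% in tho2-8, against 0.747% and 0.714% in Col-LUC.

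Shares of both tho2-8 libraries were above both Col-LUC libraries for 11 genes and below for 11. The higher ones were PSAD1, PSAD2, PSAH2, LHCA1, LHCA3, LHCA4, PSBO2, PSBY, PETE1, PETE2 and ATPD. The lower ones were PSAF, PSAH1, PSAK, PSAL, PSAN, PSAO, PSBS, PSBW, PETC, FD2 and FNR1. Each count is 32.4% of the 34, against 11.5% and 16.7% of all tested genes on the same scale. The members themselves form the denominator and most share the swing. Their replicates therefore tend to lie closer on this scale than those of other genes, and the background is not a like one. The ratio of mean shares ran from 0.838 for PSAO to 1.71 for PSAD2. With libraries scaled by the summed member counts in edgeR, 0 members passed (PSAD2, adjusted p = 0.572), and 175 genes were called in all.

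**Figure D3:**
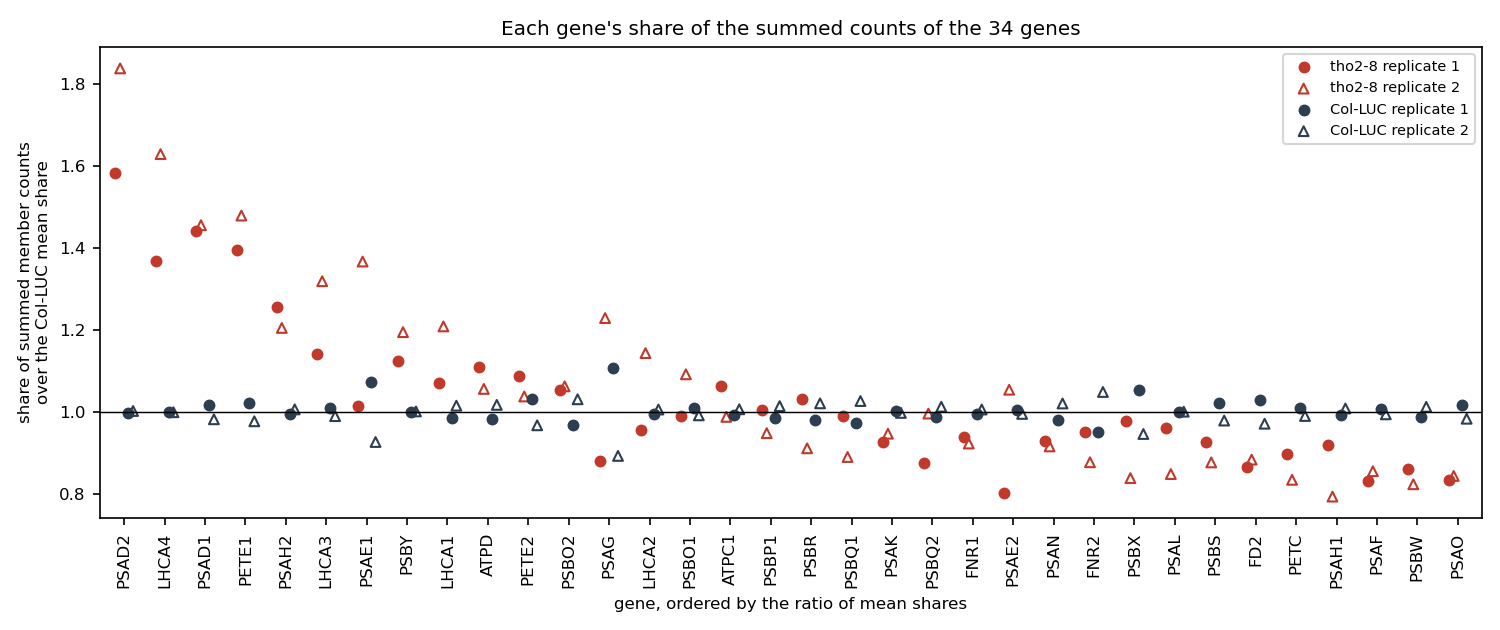
Share of each gene in the summed counts of the 34 genes, divided by its mean share in Col-LUC, for each library, with genes ordered by the ratio of mean shares. The mean tho2-8 share is highest relative to Col-LUC for PSAD2, LHCA4, PSAD1 and PETE1 and lowest for PSAO, PSBW and PSAF.

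Among the genes with lower shares in tho2-8, PSAF held 2.06% and 2.11% of the summed counts in tho2-8, against 2.49% and 2.46% in Col-LUC. PSAO held 1.78% and 1.80% in tho2-8, against 2.17% and 2.10% in Col-LUC. Among the carriers PETC held 3.57% and 3.32% in tho2-8, against 4.02% and 3.94% in Col-LUC, and FD2 held 4.25% and 4.34% in tho2-8, against 5.06% and 4.77% in Col-LUC. On the CPM scale the genotypes overlapped for PSAF, PSAO, PETC and FD2.

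In 7 cases 2 gene copies encode the same subunit, and their ratio within a library needs no scaling. The coding sequences of the copies were 75.0% identical for PETE, 75.3% for FNR, 79.5% for PSAE, 80.0% for PSBQ, 83.8% for PSBO, 87.0% for PSAH and 88.0% for PSAD. Reads that fall in shared stretches can be assigned to either copy. The longest stretch without a difference was 35 bases, in PSAD. Deposited values were fractional in at least 1 library for PSAE1, PSAE2, PSAH1 and PSAH2, so the balance of those pairs is less certain. These genes also share bases with genes on the opposite strand: PSAE1 436 and 9, PSAE2 63, PSAH1 788 and PSAH2 174. The PSAD copies, with the longest shared stretch, held no fractional value. Neither did FNR1, which shares 191 bases with AT5G66180 on the opposite strand. The source of the fractions was not tested. The most alike 90 bases of the coding sequences, counted from the first base of the start codon, are shown for the 4 pairs whose balance did not overlap between genotypes, with the bases that differ in capitals. They are taken from the TAIR10.1 genome, as bases 430 to 519 of PSAD1 and 418 to 507 of PSAD2, 244 to 333 of PSAE1 and 253 to 342 of PSAE2, 141 to 230 of PSAH1 and of PSAH2, and 388 to 477 of PETE1 and 268 to 357 of PETE2.
PSAD1: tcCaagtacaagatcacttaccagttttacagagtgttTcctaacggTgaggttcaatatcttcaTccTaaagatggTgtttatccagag
PSAD2: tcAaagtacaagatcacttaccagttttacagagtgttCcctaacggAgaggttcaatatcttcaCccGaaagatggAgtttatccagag
PSAE1: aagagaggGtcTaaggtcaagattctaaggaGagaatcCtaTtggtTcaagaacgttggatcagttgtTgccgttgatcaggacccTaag
PSAE2: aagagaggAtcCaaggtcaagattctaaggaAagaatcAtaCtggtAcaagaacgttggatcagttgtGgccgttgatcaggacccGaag
PSAH1: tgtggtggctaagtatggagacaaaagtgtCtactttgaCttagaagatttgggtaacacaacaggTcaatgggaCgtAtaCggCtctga
PSAH2: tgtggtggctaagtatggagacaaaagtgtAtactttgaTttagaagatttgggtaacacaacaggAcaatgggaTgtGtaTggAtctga
PETE1: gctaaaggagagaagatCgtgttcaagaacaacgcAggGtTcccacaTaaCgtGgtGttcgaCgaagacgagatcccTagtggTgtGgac
PETE2: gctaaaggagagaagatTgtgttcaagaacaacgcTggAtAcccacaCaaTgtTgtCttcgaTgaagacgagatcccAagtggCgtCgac
The copies differ at 6 of these 90 bases in PSAD, 8 in PSAE, 7 in PSAH and 12 in PETE.

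PSAH1 made up 46.7% and 44.1% of the counts of its pair in tho2-8, against 54.4% and 54.6% in Col-LUC. PSAH1 was thus the majority of counts in Col-LUC and PSAH2 in tho2-8, a difference of -9.11 percentage points between the means (tho2-8 45.4% ± 1.85, Col-LUC 54.5% ± 0.0755; SD, n = 2). Per length of exon PSAH2 was the higher copy in both genotypes. PSAH1 was then 31.0% of the pair in tho2-8 and 39.3% in Col-LUC. That measure divides by 1300 annotated exon bases for PSAH1 and 702 for PSAH2, although each has 438 coding bases. Which copy is higher therefore depends on the annotated exon length. PSAE1 made up 51.9% and 52.5% of its pair in tho2-8, against 47.7% and 44.3% in Col-LUC. PETE1 made up 13.7% and 15.0% of the plastocyanin counts in tho2-8, against 10.9% and 11.1% in Col-LUC. The minor plastocyanin copy was thus higher relative to the major one in both tho2-8 libraries.

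PSAD1 made up 77.4% and 74.9% of the PSAD counts in tho2-8, against 79.3% and 78.7% in Col-LUC. The balance of PSBO, PSBQ and FNR overlapped between genotypes, with PSBO1 at 71.3% and 73.0% of its pair in tho2-8, against 73.3% and 71.7% in Col-LUC. By an exact permutation test, two-sided, the p of the 4 pairs that did not overlap was 0.333, the smallest that 2 libraries against 2 allow (0.583 adjusted over the 7 pairs). No pair could therefore pass 0.05 in this design. How often other pairs of gene copies separate the genotypes was not computed, so the 4 of 7 has no background beside it.

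**Figure D4:**
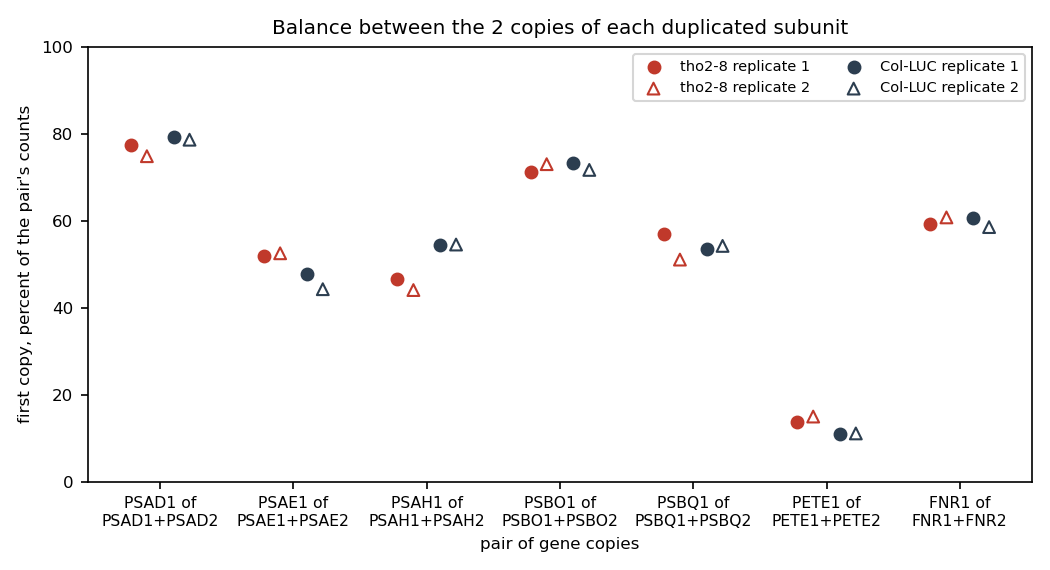
Counts of the first copy as a percentage of the counts of its pair, for the 7 duplicated subunits in each library. The tho2-8 points lie below the Col-LUC points for PSAH1 and PSAD1 and above them for PSAE1 and PETE1, and the points of PSBO1, PSBQ1 and FNR1 overlap.

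The 300 bases before the annotated start of PSAD1 and of LHCA4 are shown as the upstream regions of genes among the 4 with the largest fold changes, since their windows hold no part of another annotated gene. Capitals mark matches, on either strand, to the G-box CACGTG, bound by light-regulated factors, to the I-box GATAAG, found upstream of many photosynthesis genes, and to CCAATC, a motif of the GLK factors. They lie at chr4:1230165-1230464 and chr3:17495034-17495333 in TAIR10.1, both read from the minus strand.
PSAD1: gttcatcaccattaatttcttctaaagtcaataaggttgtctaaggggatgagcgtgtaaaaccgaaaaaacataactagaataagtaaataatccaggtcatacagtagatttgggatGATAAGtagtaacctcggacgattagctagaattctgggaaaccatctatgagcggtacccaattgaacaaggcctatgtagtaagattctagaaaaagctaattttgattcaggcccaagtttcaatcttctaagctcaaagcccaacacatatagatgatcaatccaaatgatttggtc
LHCA4: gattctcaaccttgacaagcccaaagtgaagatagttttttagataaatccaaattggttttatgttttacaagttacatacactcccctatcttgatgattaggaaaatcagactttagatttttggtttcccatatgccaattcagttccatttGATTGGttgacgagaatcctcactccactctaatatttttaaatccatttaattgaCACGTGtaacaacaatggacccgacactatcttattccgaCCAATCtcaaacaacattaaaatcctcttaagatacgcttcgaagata
LHCA4 held 1 G-box, 88 bases before the start, and 2 matches to CCAATC, 144 and 48 bases before it, while PSAD1 held 1 I-box, 181 bases before it. PSAD2 and PETE1 held none of the 3 motifs in the same window, and no motif was shared by the 4 genes. Among the 34 genes 20.6% held a G-box, against 7.09% of 27443 protein-coding genes, 26.5% held CCAATC, against 12.2%, and 26.5% held the I-box, against 14.5%. A match describes these letters and is not a site.

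The swing between Col-LUC replicates was seen in most but not all genes of the other lists. Col-LUC replicate 2 was above replicate 1 for 9 of 9 tested genes of cyclic electron flow and the NDH complex and 12 of 12 assembly factors. It was above replicate 1 for 7 of 11 minor or other isoforms, a list that includes root-type genes, and for 10787 of all 20971 tested genes. In that list of 11 tested isoforms, 0 were called by edgeR and by DESeq2, and the median log2 fold change was -0.17. At an unadjusted p under 0.05, 0 of them were higher and 3 lower, where 8.40% of all tested genes were higher and 7.18% lower. The 3 are FD3, a ferredoxin of roots, and RFNR1 and RFNR2, the root-type FNR genes. FD3 stood at 60.3 and 65.4 CPM in tho2-8, against 127 and 84.3 CPM in Col-LUC (log2 fold change -0.75 ± 0.22; edgeR, adjusted p = 0.207). RFNR2 stood at 98.3 and 109 CPM in tho2-8, against 181 and 123 CPM in Col-LUC, and RFNR1 at 41.5 and 50.7 CPM in tho2-8, against 65.3 and 57.9 CPM in Col-LUC. In these 3 genes the groups did not overlap, and Col-LUC replicate 1 was the highest library. ATPC2 and FDC1 were listed at 0 in all 4 libraries and were not tested.

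Genes of cyclic electron flow and the NDH complex (9 tested, median -0.06) held 0 calls by edgeR or DESeq2 and 0 genes at an unadjusted p under 0.05, and NDHL was listed at 0 in all 4 libraries. The thylakoid kinases STN7 and STN8 and the phosphatase TAP38 (median -0.05) also held 0 of each. Of 12 assembly and repair factors, with a median of 0.01, 0 were called. Against 7.18% of all tested genes, 1 of the 12 was lower at an unadjusted p under 0.05. That gene is CGL160, an assembly factor of ATP synthase, at 46.8 and 40.0 CPM in tho2-8, against 51.8 and 75.6 CPM in Col-LUC.

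Of 11 regulators of photosynthesis genes, with a median of 0.17, 0 were called by edgeR or DESeq2 and 2 were higher at an unadjusted p under 0.05, against 8.40% of all tested genes. GLK2, a transcription factor that activates photosystem genes, stood at 234 and 176 CPM in tho2-8, against 107 and 158 CPM in Col-LUC (log2 fold change 0.63 ± 0.24; edgeR, adjusted p = 0.291). Its relative GLK1, named after its values were seen, stood at 148 and 105 CPM in tho2-8, against 114 and 182 CPM in Col-LUC. HY5, a factor of the light response, stood at 41.0 and 40.5 CPM in tho2-8, against 33.7 and 27.3 CPM in Col-LUC (0.42 ± 0.16; edgeR, adjusted p = 0.296). GLK2 and HY5 did not overlap between genotypes, and GLK1 did. SIG4, a sigma factor of chloroplast transcription, stood at 44.0 and 31.4 CPM in tho2-8, against 18.9 and 30.0 CPM in Col-LUC.

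In whole seedlings, fewer cells of a type and less RNA per cell cannot be told apart. Markers of other tissues moved between the same libraries. The 4 root hair markers, all tested, summed to 11.8 and 6.27 CPM in tho2-8 and to 18.0 and 12.0 CPM in Col-LUC, and the 6 markers of root endodermis and stele to 217 and 289.7 CPM in tho2-8 and 298 and 231 CPM in Col-LUC. The endodermis and stele sum is carried by PHO1, at 98.3 and 164 CPM in tho2-8 and 166 and 127 CPM in Col-LUC, and its members did not move together. CASP1 stood at 10.8 and 5.11 CPM in tho2-8, against 26.0 and 14.1 CPM in Col-LUC, and was called lower by DESeq2 (adjusted p = 0.0411) but not by edgeR (adjusted p = 0.228). CASP2 also lay lower in both tho2-8 libraries, with a log2 fold change of -1.36, while SCR (0.33) and SHR (0.44) lay higher in both. These root markers stand beside the lower values of FD3, RFNR1 and RFNR2, and their part in those values was not tested. The 3 root meristem markers summed to 7.21 and 7.70 CPM in tho2-8 and to 13.4 and 4.49 CPM in Col-LUC. All 3 root lists were higher in Col-LUC replicate 1 than in Col-LUC replicate 2, the opposite of the photosynthesis genes. The 5 stomatal and guard cell markers summed to 89.7 and 59.2 CPM in tho2-8 and to 36.2 and 56.3 CPM in Col-LUC. FAMA was the largest part of this sum, at 49.6 and 27.4 CPM in tho2-8, against 17.2 and 22.4 CPM in Col-LUC. Of the 5, 4 had log2 fold changes above 0, and SPCH lay lower, at 3.13 and 1.43 CPM in tho2-8, against 3.32 and 4.13 CPM in Col-LUC. The 4 epidermis markers summed to 487 and 287 CPM in tho2-8 and 308 and 358 CPM in Col-LUC.

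The 6 floral organ markers summed to 26.4 and 18.4 CPM in tho2-8 and to 11.4 and 38.9 CPM in Col-LUC. Of 3 seed markers AT2S3 and CRU3 were at 0 in every library. In the other marker lists 0 genes were at 0 in all libraries of a genotype. The part of tissue makeup in the values of the 34 genes was not tested.

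**Figure D5:**
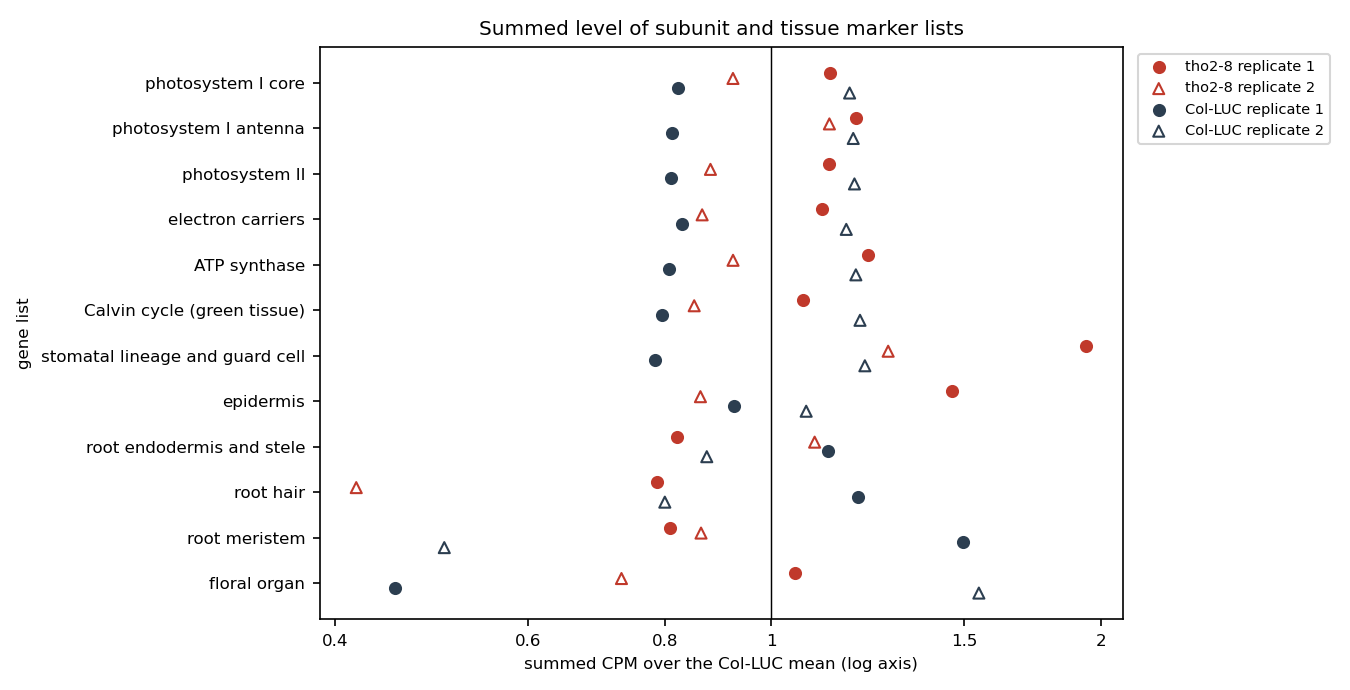
Summed CPM of the subunit groups and of marker lists in each library, divided by the Col-LUC mean, on a log axis. The photosynthesis and Calvin cycle lists are lowest in Col-LUC replicate 1, where the 3 root lists are highest.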

How the data were processed

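The mRNA of 4 seedling libraries was measured with a stranded kit, per the labels' protocols, 2 of tho2-8 and 2 of Col-LUC. The authors deposited estimated counts per locus, of which 2.06% to 2.15% of loci per library are not whole numbers. HISAT2 2.1.0, featureCounts 1.6.3, Trimmomatic, DESeq2 1.24.0 and the TAIR10 build are named in the submitters' processing notes. The sources used here do not give the counting settings for strand or shared reads. Values were rounded to whole counts, since the tests had been planned for whole counts. Genes were kept with edgeR's filterByExpr (minimum count 10), scaled by TMM and tested with edgeR 4.0.16 (quasi-likelihood, genotype only) in R 4.3.3, with adjustment over 20971 genes at 0.05. The 296 organelle loci stayed in the table. DESeq2 1.42.0, limma-voom (limma 3.58.1), other scalings and filters, replicate blocks and leaving out each library were alternatives. The fit was tested on simulated data. The 34 members and all gene lists were chosen with earlier results of these data known. All 34 members were to be named, with full statistics for called members and for the smallest p of each complex, and up to 3 genes of each other list. PSAD1 and PSAO received statistics after their values were seen. Of the list entries, 88 were paired with a locus. Exon lengths, coding sequences and upstream regions are from RefSeq's TAIR10.1, and the files hold no coordinates. The upstream windows were searched for 3 motifs on both strands.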

Additional observations from a re-analysis of the deposited data

How the results depend on the processing

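edgeR called 2 genes in all, of which 0 were among the 34. That count was 560 with DESeq2, 1 with limma-voom and 59 without the filter on low counts. It was 175 with libraries scaled by the summed member counts and 537 with a crossed replicate block, both added after seeing the data. Leaving out 1 library gave 0 to 710, with 0 without either Col-LUC library, 710 without tho2-8 replicate 1 and 115 without tho2-8 replicate 2. The count of members was 1, PSAD2, with DESeq2 (adjusted p = 0.0364) and with edgeR and the crossed replicate block (adjusted p = 0.0409). The crossed block pairs tho2-8 replicate 1 with Col-LUC replicate 2, the libraries of each genotype in which most members were higher. No label gives this pairing, which follows the swing of the members themselves, so its call of PSAD2 is not separate support. Deviations of same-numbered libraries had a correlation of -0.138 over all tested genes. With 2 libraries per genotype this cannot show whether the numbers mark a shared batch, which the labels do not say. The replicate block called 2 genes. The 4 members at an unadjusted p under 0.05 became 2 with the replicate block, 1 with scaling by member counts and 1 to 9 without 1 library. Without Col-LUC replicate 2 the median log2 fold change was 0.26 for carriers (-0.34 to 0.26 over the libraries left out), 0.57 for the antenna (0.0197 to 0.57) and 0.23 for the photosystem I core (-0.32 to 0.23). The difference in the first copy's share ran from -0.614 to 1.45 percentage points for FNR, -1.23 to 0.538 for PSBO and -2.80 to 3.04 for PSBQ. PSBP1, at 0.00, turned to -0.0122 with DESeq2, -0.0154 with its size factors, -0.000155 with a CPM filter and -0.0340 with scaling by member counts. PSBR, at -0.00 in the main test, turned to 0.0061 with limma-voom, 0.0343 with library totals, 0.00068 without the filter and 0.0069 with either block. Signs turned without 1 library for 26 members, where the log2 fold change ran from -0.18 to 0.38 for ATPC1, -0.12 to 0.47 for ATPD, -0.36 to 0.0940 for FD2, -0.32 to 0.24 for FNR1, -0.40 to 0.28 for FNR2, -0.0528 to 0.53 for LHCA1, -0.16 to 0.40 for LHCA2, -0.42 to 0.11 for PETC, -0.0962 to 0.38 for PETE2; from -0.33 to 0.19 for PSAE2, -0.45 to 0.0741 for PSAF, -0.49 to 0.13 for PSAH1, -0.30 to 0.23 for PSAK, -0.40 to 0.20 for PSAL, -0.35 to 0.24 for PSAN, -0.44 to 0.0509 for PSAO, -0.15 to 0.37 for PSBO1, -0.17 to 0.46 for PSBO2; and from -0.26 to 0.32 for PSBP1, -0.33 to 0.29 for PSBQ1, -0.33 to 0.24 for PSBQ2, -0.30 to 0.33 for PSBR, -0.34 to 0.15 for PSBS, -0.47 to 0.10 for PSBW, -0.40 to 0.18 for PSBX and -0.00304 to 0.54 for PSBY. The cause was not tested. With 2 libraries per genotype, the spread between replicates limits these values more than depth does.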
